A study of Mus musculus with 840 samples.

Results

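The binding proteins and receptors of the insulin-like growth factors (IGFs) were followed through the basal-to-luminal conversion that active Notch1 induces in the mouse mammary gland. The members were chosen by gene symbol: the binding protein genes Igfbp2, Igfbp3, Igfbp4, Igfbp5, Igfbp6 and Igfbp7 and the receptor genes Igf1r and Igf2r. All 8 were found among the 39154 genes of the deposited count tables, each as 1 gene, and all 8 passed the filter on low counts of the test. The cells came from SMACreERT2/N1ICD and K5CreERT2/N1ICD mice, labelled SMA_NIC and K5_NIC. These mice carry a tamoxifen-dependent Cre under the smooth muscle actin or the keratin 5 promoter, both of which are active in basal cells, and the Rosa-N1ICD-IRES-nGFP allele, from which Cre releases the intracellular domain of Notch1 together with nuclear GFP. Tamoxifen was given before puberty, and single cells were index-sorted after a chase of 1, 3, 4 or 6 weeks in SMACreERT2 mice. The chase was 3 weeks on 1 of the K5CreERT2 plates, and on the other (plate L) the deposited annotation gives 3 weeks in 1 field and 6 weeks in another. The study's listing of sorted cells gives 3 weeks for both K5CreERT2 plates. Gates on EpCAM and CD49f separated basal, intermediate and luminal cells, and each gate was divided into GFP+ cells, which had recombined the allele, and GFP- cells. The GFP- cells came from the same mice, so they carried both alleles and had been exposed to tamoxifen, and no mice without the alleles were sequenced.

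Of 744 cells from 8 plates, those kept after quality control had 103081 to 3363298 reads on genes per cell (median 652124). They comprised 100 basal and 120 luminal GFP+ cells, intermediate GFP+ cells numbering 4, 3, 13, 19, 60, 63 and 61 on plates 1, 2, 3, 4, E, G and L, and 17 basal, 12 intermediate and 39 luminal GFP- cells. Plates 1 to 5 (SMACreERT2, sequencing batches 1 and 2) had median depths of 402767 and 397250.5 reads per cell by batch, and plates E (SMACreERT2), G and L (K5CreERT2) of batch 3 had 1499629.5. Every plate held cells of its own 1 or 2 mice, so the plate was taken as the replicate. Reads were summed over the cells of a gate and GFP state on a plate where at least 3 cells were kept. This gave 30 sums of 1298589 to 97764884 reads. Levels are in CPM (counts scaled to a common total of reads on genes) of such a sum, and in a sum fewer expressing cells and less RNA per cell cannot be told apart. A gene was called detected in a cell if it had a read after every cell was thinned to 100000 reads.

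The basal and luminal gates carried the markers of their labels, but some sums held more of another list. Summed over all cells of a gate, the 10 basal markers had 13180 CPM in basal GFP+, 8324 CPM in intermediate GFP+ and 1027 CPM in luminal GFP+ cells, and the 10 markers of hormone-receptor-negative (HRneg) luminal cells had 1616, 1310 and 7546 CPM. The order of basal and intermediate GFP+ cells varied by plate. The basal list had 14580, 15040 and 22720 CPM in basal and 3120, 14710 and 16600 CPM in intermediate cells of plates 1, 3 and 4, but 8645 and 3571 CPM in basal and 10120 and 6072 CPM in intermediate cells of plates G and L. The HRneg list was lower in intermediate than in basal cells on plates 1, 3, 4 and G and higher on plate L (1262 and 253.2 CPM). Luminal GFP+ cells had less of the basal and more of the HRneg list than both other gates on each of these plates. The 4 intermediate GFP+ cells of plate 1 stood apart, with 3120 CPM of basal, 3390 CPM of hormone-receptor-positive (HRpos) luminal and 1959 CPM of endothelial markers. The sebaceous list summed in basal GFP+ cells to 1945 CPM on plate G and 6332 CPM on plate L (Scd1 1694 and 5746 CPM), above the basal list on plate L, and to 13.7 to 21.8 CPM on plates 1, 3 and 4. These are the 2 plates with the highest basal levels of Igfbp2 and Igfbp4. In luminal GFP+ cells of plate 1 the salivary list summed to 26390 CPM, above the HRneg list. The part of these cells in the levels of the members was not tested beyond the values given without them. The limit of 3 markers of another type, used for those values, removed 0 of the 8 luminal GFP+ cells of plate 1. Levels of that sum are therefore given only with its salivary reads. For the SMACreERT2 plates of the earlier batches that hold both gates, the study's listing of sorted cells gives luminal and intermediate GFP+ numbers that are exchanged relative to the labels of the deposited cells, exactly on the plates of the shorter chases and only nearly so on the longest of them, where the basal number differs as well. Groups here follow the deposited labels, by which the HRneg markers summed to 3736, 5399 and 7254 CPM in luminal and to 919, 1331 and 2251 CPM in intermediate GFP+ cells of plates 1, 3 and 4. Some cells carried markers of other types: 54 of the kept cells had at least 3 markers of fibroblasts, endothelial cells, pericytes, immune cells, salivary gland, fat or sebaceous gland, a count introduced after seeing the data. Of these, 23 were intermediate GFP+ cells of plate L with sebaceous markers. For part of the results the level without them is given as well.

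In the IGF system, the ligands IGF1 and IGF2 circulate and diffuse through tissue bound to the binding proteins, which prolong their life and control their access to receptors. IGF1R is the tyrosine kinase that passes the signal into the cell, and IGF2R, also the receptor for mannose 6-phosphate, takes up IGF2 for degradation. IGFBP3 forms a long-lived ternary complex with IGF and the acid-labile subunit, IGFBP4 is known as an inhibitor that the protease PAPP-A cleaves, and IGFBP5 is known in the mammary gland for its rise at involution, when milk-producing cells die. IGFBP6 prefers IGF2, and IGFBP7 binds IGFs only weakly and is a matrix protein of vessels.

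The members lie on 6 chromosomes (build GRCm38, GENCODE M21), and all are protein-coding. Igfbp2 (chromosome 1, 72824503 to 72852474, plus strand) and Igfbp5 (chromosome 1, 72857932 to 72874884, minus strand) are neighbours that face each other, with 5457 bases between them. Igfbp3 lies on chromosome 11, 7206086 to 7213923, and Igfbp4 on the same chromosome at 99041244 to 99054392. Igfbp6 is on chromosome 15, 102144362 to 102149511, and Igfbp7 on chromosome 5, 77349240 to 77408041. The receptor genes are Igf1r (chromosome 7, 67952827 to 68233668) and Igf2r (chromosome 17, 12682406 to 12769664). Smart-seq2 does not keep the strand, so that reads from bases shared with a gene on the other strand cannot be assigned by strand. Over whole genes, introns included, Igfbp7 shares 7085 bases with its antisense gene Gm34648 and 85 with Polr2b, and Igf2r shares 28354 with Airn. The exons sum to 1209 bases in Igfbp7 and 9308 in Igf2r, so much of this overlap lies outside them. The shared exon bases were not counted.

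The promoters of the members whose levels the results turn on are shown because active Notch works through the DNA-binding protein RBPJ, whose core motif is TGGGAA. Each runs from 250 bases before to 50 bases after the transcription start, as RefSeq gives it for GRCm38.p6, 5′ to 3′. Capitals mark matches on either strand to the RBPJ core, to the SP1 motif GGGCGG or to the TATA box TATAAA, none of which overlap in these 4 windows.
Igfbp3 promoter, chr11:7213874-7214173, minus strand: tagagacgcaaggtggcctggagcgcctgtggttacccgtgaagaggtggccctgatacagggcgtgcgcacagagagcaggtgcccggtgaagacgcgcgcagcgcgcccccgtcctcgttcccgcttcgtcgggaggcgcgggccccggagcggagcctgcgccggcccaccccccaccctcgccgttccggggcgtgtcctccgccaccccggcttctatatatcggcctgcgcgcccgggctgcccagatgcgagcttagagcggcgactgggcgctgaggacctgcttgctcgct
Igfbp5 promoter, chr1:72874816-72875115, minus strand: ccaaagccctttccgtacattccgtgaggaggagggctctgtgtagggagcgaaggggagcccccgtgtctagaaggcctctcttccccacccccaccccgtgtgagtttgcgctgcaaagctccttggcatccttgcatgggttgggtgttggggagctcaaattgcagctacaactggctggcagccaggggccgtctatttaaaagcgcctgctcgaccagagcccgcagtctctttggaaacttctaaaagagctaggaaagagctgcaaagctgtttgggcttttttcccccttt
Igfbp4 promoter, chr11:99040994-99041293, plus strand: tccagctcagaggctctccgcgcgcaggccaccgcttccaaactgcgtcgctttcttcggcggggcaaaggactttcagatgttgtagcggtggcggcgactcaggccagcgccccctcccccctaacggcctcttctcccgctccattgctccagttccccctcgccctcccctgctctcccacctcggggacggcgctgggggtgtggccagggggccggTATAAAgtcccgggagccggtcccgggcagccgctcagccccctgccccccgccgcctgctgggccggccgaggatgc
Igf1r promoter, chr7:67952007-67952306, plus strand: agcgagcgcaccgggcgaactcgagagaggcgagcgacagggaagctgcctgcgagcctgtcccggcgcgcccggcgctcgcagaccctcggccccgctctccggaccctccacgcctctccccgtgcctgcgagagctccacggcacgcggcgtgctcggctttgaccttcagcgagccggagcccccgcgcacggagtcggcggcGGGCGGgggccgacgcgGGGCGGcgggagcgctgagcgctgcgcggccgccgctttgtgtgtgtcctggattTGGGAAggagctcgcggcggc
All 8 members matched, with 9 promoters, since Igfbp2 has a pair. The RBPJ core was found in 1 of the 9 (Igf1r, starting 29 bases after the start site) and in 25.56% of the 32851 promoters of the table. SP1 was found in 4 of 9 and in 35.66% of all, and TATAAA in 2 of 9 and in 13.62%. The windows of Igfbp3 and Igfbp5 held none of the 3 motifs, which says only that these letters are not in these windows.

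Igfbp3 was the only member whose difference between luminal and other GFP+ cells passed in the reported edgeR fit. In DESeq2 and limma, Igfbp2, Igfbp4 and Igfbp7 passed as well between luminal and basal GFP+ cells. Igfbp3 was abundant in basal and intermediate GFP+ cells and nearly absent from luminal cells, GFP+ or GFP-. In basal GFP+ cells it had 756 CPM on plate 1, 1409 on plate 3, 1952 on plate 4, 105.5 on plate G and 335 on plate L. In intermediate GFP+ cells it ranged from 29.8 CPM on plate 1 to 2049 CPM on plate 4, with a median of 725 CPM over 7 plates. In luminal GFP+ cells 5 of 6 plates had between 0 and 0.682 CPM, and plate 4 had 163.3 CPM. That plate lay above the basal value of plate G and the intermediate value of plate 1, so the groups overlapped. Without cells with markers of other types, Igfbp3 had 562, 1491, 2065 and 773 CPM in the basal sums of plates 1, 3, 4 and L, and in the intermediate sums 2.03 CPM on plate 1 and 406 CPM on plate L. On plate 4 Igfbp3 was detected in 6 of 51 luminal GFP+ cells, and 40.1% of its 3000 reads came from 1 of them. In luminal GFP- cells Igfbp3 had at most 0.400 CPM on 7 plates, and 0 of 39 cells had it detected after thinning to 100000 reads, which allows up to 9.03% of cells at that depth (exact Clopper-Pearson 95% limit; these intervals cover counting error only). With all reads, 6 of the 39 cells (15.4%) had at least 1 read. After thinning it was detected in 81 of 100 basal GFP+ cells (81%, 95% CI 71.9 to 88.2), in 120 intermediate GFP+ cells (53.8%, 95% CI 47.03 to 60.5) and in 8 of 120 luminal GFP+ cells (6.67%, 95% CI 2.92 to 12.7). The luminal GFP+ share depended on the limit, with 25 of 120 cells (20.8%) when all reads were used and 4 of 120 (3.33%) when 5 reads were asked for after thinning. In basal GFP+ cells these shares were 88% and 80%.

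Between luminal and basal GFP+ cells, the log2 fold change of Igfbp3 was -8.64 (SE 1.46, adjusted p = 0.00388, edgeR's quasi-likelihood test with plate as a block and Benjamini-Hochberg adjustment over 19796 genes), and it was lower on 5 of 5 plates with both groups, as were 4.27% of all genes tested. It was the only 1 of the 8 members called, against 0.727% of all 19796 genes. Without plate 3 the adjusted p was 0.0516, and in batches 1 and 2 alone, a setting added after seeing the data, it was 0.113. Between luminal and intermediate GFP+ cells, Igfbp3 fell by 8.24 (SE 1.45, adjusted p = 0.0136, same fit), again as the only member called, where 0.152% of genes (30 of 19796) passed. This call was lost without plate 3 (adjusted p = 0.117), without plate G (0.058), in batches 1 and 2 alone (0.352), without the block (0.0659) and in a fit of these groups alone (0.179). Between intermediate and basal GFP+ cells no gene passed (0% of 19796). In this edgeR fit 618 genes had a raw p below 0.05, a smaller share than tests without any difference would give. DESeq2 called 384 genes and limma 21.

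**Figure D1:**
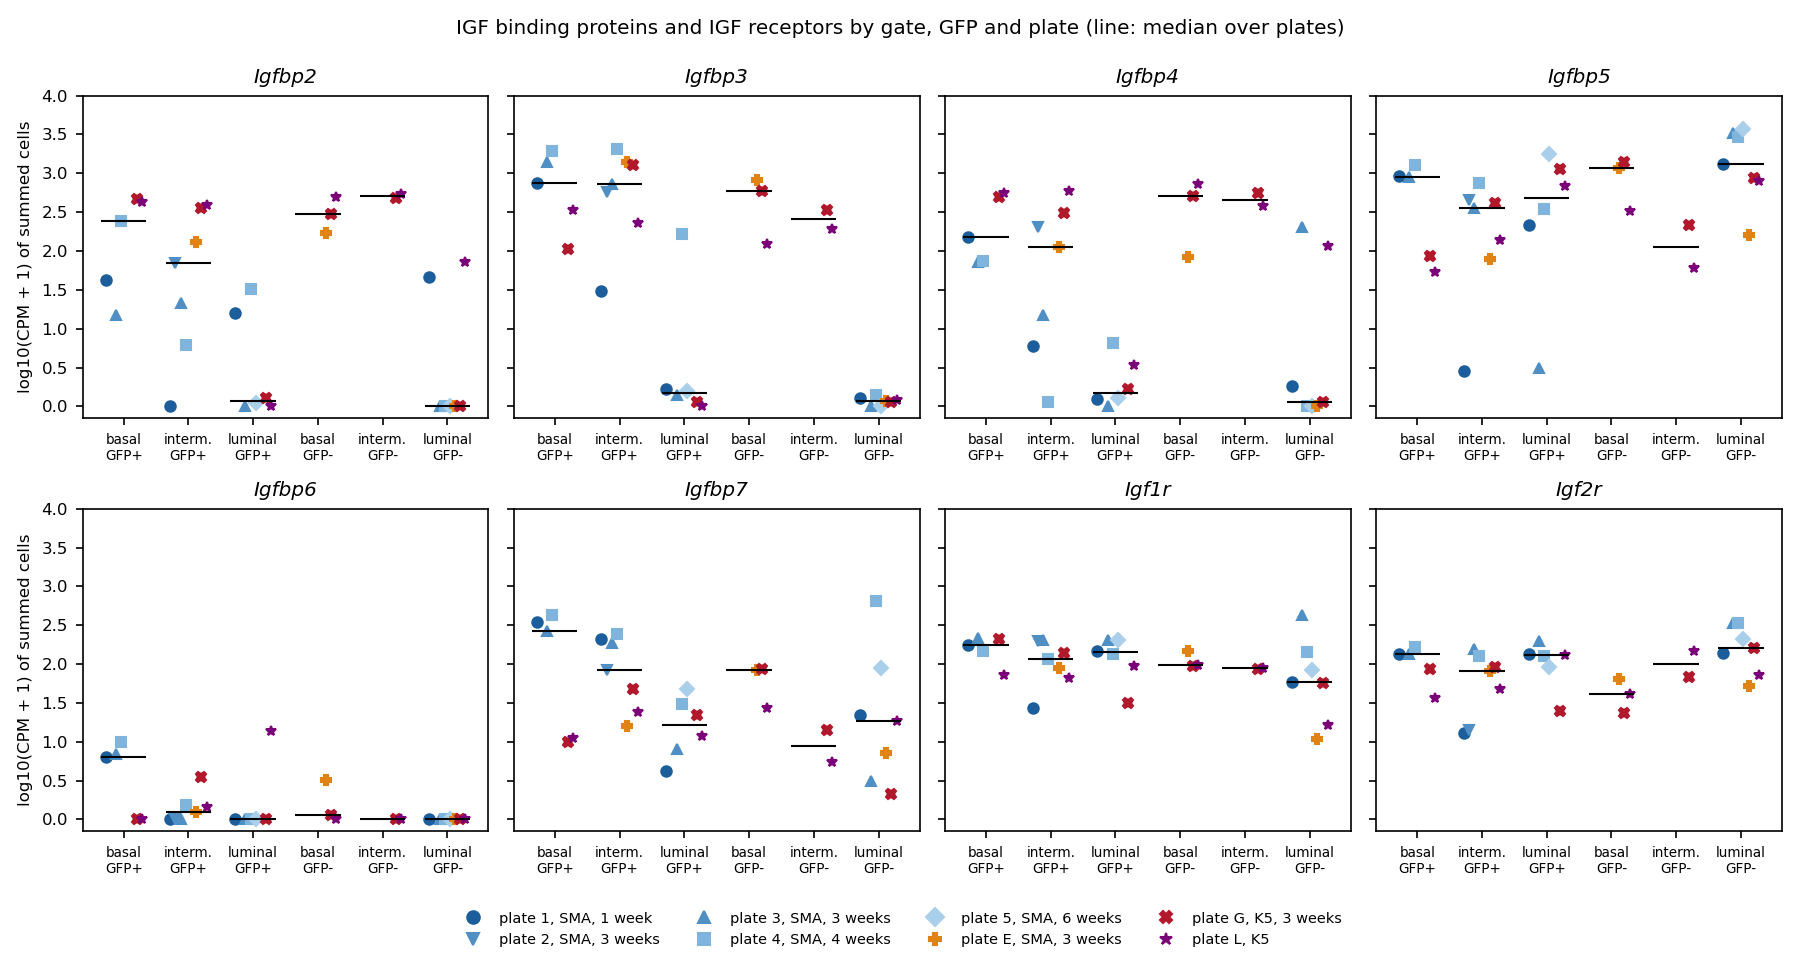
Level of each member in every sum of cells, as log10(CPM + 1) on the y axis, by gate and GFP state on the x axis; symbols and colours mark the plates and the line is the median over plates. Igfbp3 is at 29.8 CPM or more in every basal and intermediate sum and at 0.682 CPM or less in every luminal sum except GFP+ cells of plate 4 (163.3 CPM), while Igfbp5 spans a wide range in all 3 gates. The 29.8 CPM is that of intermediate GFP+ cells of plate 1, which have 2.03 CPM of Igfbp3 without 1 cell with markers of another type.

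Igfbp2 and Igfbp4 were also low in luminal GFP+ cells. Igfbp2, one of the most abundant binding proteins of fetal tissue and serum, had 41.3, 13.9, 240, 461 and 429 CPM in basal GFP+ cells of plates 1, 3, 4, G and L. In luminal GFP+ cells it ranged from 0 to 30.97 CPM, with a median of 0.185 CPM over 6 plates. It was detected in 30 of 100 basal GFP+ cells, in 47.1% of intermediate GFP+ cells and in 2 of 120 luminal GFP+ cells. Igfbp4 had 152.2, 71.1, 72.7, 491 and 550 CPM in basal GFP+ cells of the same plates and 0 to 5.61 CPM in luminal GFP+ cells (median 0.487 CPM). All 5 basal values lay above all 6 luminal ones, as for 1.15% of all genes tested. It was detected in 29 of 100 basal GFP+ cells, in 52.02% of intermediate GFP+ cells and in 5 of 120 luminal GFP+ cells. Both genes were lower in luminal than in basal GFP+ cells on 5 of 5 plates, but neither passed in the reported edgeR fit. The log2 fold change was -4.79 for Igfbp2 (SE 1.87, adjusted p = 0.318 in edgeR) and -6.65 for Igfbp4 (SE 2.05, adjusted p = 0.154 in edgeR). Against intermediate GFP+ cells it was -4.58 for Igfbp2 (SE 2.10, adjusted p = 0.536 in edgeR) and -5.24 for Igfbp4 (SE 2.36, adjusted p = 0.523 in edgeR), which turned to 0.48 in batches 1 and 2 alone. Here Igfbp2 was lower in luminal cells on 3 of 5 plates and higher on plates 1 and 4, and Igfbp4 was lower on 4 of 5. All Igfbp2 reads of luminal GFP+ cells came from 1 of 8 cells on plate 1 (66 reads) and from 1 of 51 on plate 4 (569 reads).

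The intermediate levels of both genes differed widely between plates. In intermediate GFP+ cells of plates 1, 2, 3, 4, E, G and L, Igfbp2 had 0, 69.3, 20.1, 5.15, 130, 358 and 391 CPM. Igfbp4 had 5.04, 204.1, 13.9, 0.1355, 110.5, 308 and 584 CPM on the same plates. Both were higher on the 3 plates of batch 3 than on plates 1, 3 and 4, and batch 3 held most of the intermediate cells. Plate 2, with 3 cells, lay between these for Igfbp2 and above plate E for Igfbp4. Igfbp2 was detected in 0 of 4, 2 of 3, 3 of 13 and 1 of 19 cells on plates 1 to 4, and in 38.3%, 53.97% and 68.9% of cells on plates E, G and L.

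In basal GFP+ cells, 75.8% of the reads of Igfbp4 came from cells with markers of other types. In basal GFP- cells it was 10.5%, and the level was 436 CPM with and 512 CPM without such cells. On plate 1, 97.2% of its reads in basal GFP+ cells came from the 5 of 50 cells that had at least 3 such markers, and the other 45 cells had 4.89 CPM, below the 5.61 CPM of luminal GFP+ cells of plate 4, so that without such cells the groups overlapped. On plates 3, 4, G and L, the level without such cells was 9.48, 48.1, 403 and 152.7 CPM. Igfbp2 had 46.5, 14.7, 239.4 and 348 CPM without them on plates 1, 3, 4 and G, and 52.1 CPM in place of 429 CPM on plate L, where 3 of 6 cells were left. In a fit without these cells, added after seeing the data, the log2 fold change between luminal and basal GFP+ cells was -4.94 for Igfbp4 (adjusted p = 0.321 in edgeR) and -4.50 for Igfbp2 (adjusted p = 0.338 in edgeR), and that of Igfbp3 was -8.91 (adjusted p = 0.0111 in edgeR).

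Igfbp7 had 350, 263.1, 431, 8.79 and 10.3 CPM in basal GFP+ cells of plates 1, 3, 4, G and L, 15.04 to 240 CPM in intermediate GFP+ cells (median 82.4 CPM) and 3.18 to 46.9 CPM in luminal GFP+ cells (median 16.2 CPM). The basal values of plates 1, 3 and 4 lay above all luminal GFP+ values and those of plates G and L within them. In edgeR the log2 fold change was -2.71 between luminal and basal GFP+ cells (SE 1.12, adjusted p = 0.363) and -2.38 between luminal and intermediate GFP+ cells (SE 0.984, adjusted p = 0.475). Luminal cells were lower than basal ones on plates 1, 3 and 4 and higher on plates G and L, and in batch 3 alone the first fold change turned to 0.55. Without cells with markers of other types, the basal GFP+ cells of plate L had 23.7 CPM in place of 10.3 CPM, above its luminal GFP+ cells, so that luminal cells were then the lower ones on that plate. In intermediate GFP+ cells plates 1 to 4 lay between 82.4 and 240 CPM and plates E, G and L between 15.04 and 46.3 CPM, without overlap. On plate 1 all reads came from 1 cell with markers of another type, and without that cell it had 0 CPM and the plates overlapped. Among the basal GFP+ sums the SMACreERT2 plates were all in batches 1 and 2 and the K5CreERT2 plates in batch 3, so that line and batch cannot be told apart in them. Basal GFP- cells of batch 3 had 82.4 CPM on plate E (SMACreERT2) and 84.4 and 25.9 CPM on plates G and L (K5CreERT2).

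Of the reads of Igfbp7, a gene strongly expressed by vessels, a part came from a few cells. On plate 1, 5 GFP+ cells of the basal and intermediate gates had at least 4 endothelial or pericyte markers and at most 2 Epcam reads, a group picked after seeing the data. The study's sort gated out cells stained for CD31 (the product of Pecam1), CD45 or Ter119. In these 5 cells Igfbp7 had 2225 CPM, Igfbp4 1154 CPM and Igfbp3 1745 CPM, against 86.4, 5.26 and 559 CPM in the other 49 basal and intermediate cells of that plate. The endothelial list summed to 817 CPM in basal GFP+ cells of plate 1, with all 6 genes above 0 and Pecam1 the highest at 273.7 CPM, and to at most 7.72 CPM on the other 4 plates. Without cells with 3 or more markers of another type, Igfbp7 had 93.4, 139.1, 318, 10.9 and 23.7 CPM in basal GFP+ cells of plates 1, 3, 4, G and L.

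Igfbp6 was rare. It had 694 reads in all, from 16 cells, and its highest value was 12.7 CPM, in luminal GFP+ cells of plate L, where all 120 reads came from 1 cell. It had 0 to 8.98 CPM in basal GFP+ cells over 5 plates, and on plate 1 it had 5.34 CPM, or 0.306 CPM without cells of other types. In luminal GFP- cells it had 0 reads of 31977040, which allows up to 0.0938 CPM (3 reads in all). No fold change is given for it.

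Igfbp5 showed another pattern. It was present in all 3 gates, and its level did not separate luminal from basal cells. In basal GFP+ cells it had 912 CPM on plate 1, 896 on plate 3, 1266 on plate 4, 85.3 on plate G and 52.5 on plate L. On plate L none of these reads came from the 3 of 6 cells with markers of other types, and without them the level was 2.31 times as high. In intermediate GFP+ cells it had 1.83 to 744 CPM, with a median of 356 CPM over 7 plates. In luminal GFP+ cells it had 218.1 CPM on plate 1, 2.12 on plate 3, 345 on plate 4, 1792 on plate 5, 1139 on plate G and 681 on plate L. The range of the luminal plates covered that of the basal ones. On plates G and L the luminal value was the higher one, and on plates 1, 3 and 4 the basal one. The log2 fold change between luminal and basal GFP+ cells was -0.03 (SE 1.14, adjusted p = 1 in edgeR), and between luminal and intermediate GFP+ cells it was 1.18 (SE 0.992, adjusted p = 0.820 in edgeR). The first was 3.57 in batch 3 alone, and the second turned to -0.22 in batches 1 and 2 alone. Single cells weighed heavily in these sums: 96.1% of the reads in luminal GFP+ cells of plate 1 came from 1 of 8 cells, and 99.7% in basal GFP+ cells of plate G from 1 of 5 cells.

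The mean level of Igfbp5 over plates was highest in luminal GFP- cells, although on plates E and G basal GFP- cells had more. Luminal GFP- cells had 1304, 3344, 2923, 3699, 161.6, 860 and 785 CPM on plates 1, 3, 4, 5, E, G and L (mean 1868 ± 1418 CPM, SD, n = 7), against 696 ± 668 CPM (SD, n = 6) in luminal GFP+ cells. The groups overlapped, and the GFP- level was the higher one on 5 of 6 plates with both. On plates E and G, 97.5% and 99.8% of the GFP- reads came from 1 cell each. It was detected in 26 of 39 GFP- cells (66.7%, 95% CI 49.8 to 80.9) and in 62 of 120 GFP+ cells (51.7%, 95% CI 42.4 to 60.9). The study named Igfbp5 from a comparison of HRneg luminal cells of this series by GFP state, which overlap with the cells compared here, so its direction here is not independent evidence. The log2 fold change of luminal GFP- over GFP+ cells was 1.23 (SE 0.948, adjusted p = 0.829 in edgeR), and it turned to -0.23 in batch 3 alone. None of the 8 members passed in this comparison, in which 0.0303% of all genes did (6 of 19796, all lower in GFP- cells). Igfbp3 was -3.89 (SE 1.57, adjusted p = 0.656 in edgeR), -0.77 without plate 4 (adjusted p = 0.982) and 1.31 in batch 3 alone.

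**Figure D2:**
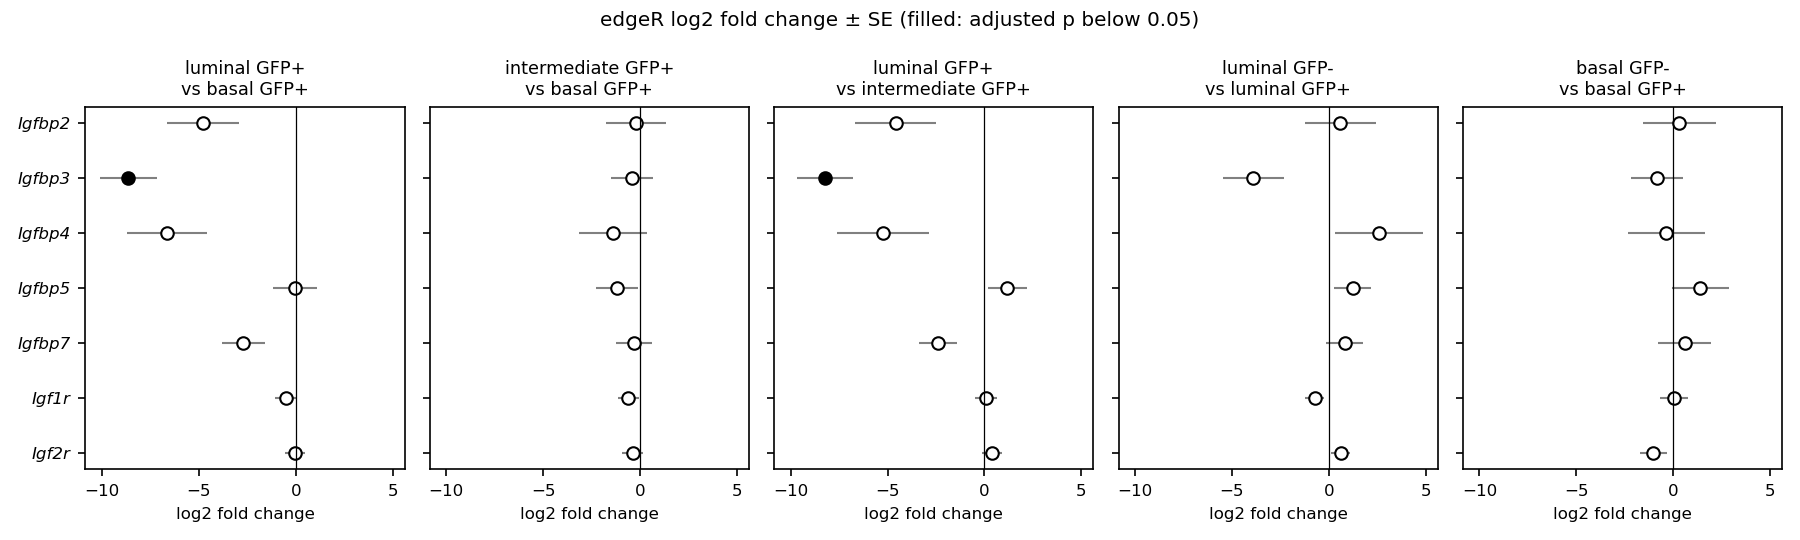
Log2 fold change (x axis) with its SE for each member except Igfbp6 (y axis) in the 5 comparisons, from edgeR; the filled points have an adjusted p below 0.05. Only Igfbp3 is filled, in luminal against basal and luminal against intermediate GFP+ cells.

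The receptor genes showed no difference between gates that passed the test. Igf1r had 176.2, 215.7, 146.8, 207.5 and 70.4 CPM in basal GFP+ cells of plates 1, 3, 4, G and L, 26.6 to 205.5 CPM in intermediate GFP+ cells (median 114.3 CPM) and 30.3 to 204.8 CPM in 5 of the 6 luminal GFP+ sums (median of all 140.6 CPM), with plate 3 level with the highest of the 5. Igf2r had 133.7, 134.4, 162.8, 84.3 and 35.4 CPM in the basal sums, 11.9 to 127.7 CPM in 6 of the 7 intermediate sums, with plate 3 above these, and 24.2 to 194.9 CPM in the luminal GFP+ sums. The ranges of all 3 gates overlapped for both genes. Without cells of other types, Igf1r had 0.678 CPM in the intermediate sum of plate 1 in place of 26.6 CPM, and 161.6 CPM in the basal sum of plate L in place of 70.4 CPM. On the 5 plates with both groups, Igf1r was lower in intermediate than in basal GFP+ cells on 5, a pattern whose share over all genes was not counted. Igf1r was lower in luminal than in basal GFP+ cells on 4 of these plates. The exception was plate L, where without cells of other types the basal level of 161.6 CPM lay above the luminal one of 93.9 CPM. In edgeR the log2 fold change between luminal and basal GFP+ cells was -0.52 for Igf1r (SE 0.555, adjusted p = 0.838) and -0.02 for Igf2r (SE 0.517, adjusted p = 1). Both were found in most cells: Igf1r in 81%, 79.8% and 82.5% of basal, intermediate and luminal GFP+ cells, and Igf2r in 76%, 77.6% and 85%. Between luminal GFP- and GFP+ cells, Igf1r was -0.74 (SE 0.507, adjusted p = 0.798 in edgeR) and Igf2r 0.61 (SE 0.476, adjusted p = 0.832 in edgeR). Igf2r had 187.6 ± 116.9 CPM in luminal GFP- cells (SD, n = 7) and 116.6 ± 56.5 CPM in luminal GFP+ cells (SD, n = 6). In basal GFP- cells it had 41.9 ± 20 CPM (SD, n = 3 plates).

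Levels of different genes were compared per kilobase of exon (RPKM). By mean, 5 of the 6 binding proteins lay above the receptors in basal GFP+ cells and Igfbp6 below them, with wide spreads between plates. In basal GFP+ cells the mean was 291.2 ± 244.2 RPKM for Igfbp3, 175.8 ± 160.9 for Igfbp7, 128.3 ± 113.2 for Igfbp2, 106.9 ± 90.6 for Igfbp5, 60.6 ± 53.1 for Igfbp4, 11.8 ± 5.42 for Igf2r, 9.72 ± 3.49 for Igf1r and 3.65 ± 3.55 for Igfbp6 (SD, n = 5). Each neighbouring pair in this order lay within the larger SD of the pair, except Igf1r and Igfbp6. Cells with markers of other types are included, and they held 61.4% of the reads of Igfbp7 and 75.8% of those of Igfbp4 in basal GFP+ cells. The order may differ without them. In luminal GFP- cells Igfbp5 led with 311 ± 236.1 RPKM, before Igfbp7 (92.2 ± 195.8, of which plate 4 gives most), Igf2r (20.1 ± 12.6), Igfbp4 (10.3 ± 18.3), Igfbp2 (9.06 ± 15.99), Igf1r (6.71 ± 8.59) and Igfbp3 (0.0546 ± 0.0465; SD, n = 7). In luminal GFP+ cells Igfbp5 led as well, with 115.9 ± 111.2 RPKM (SD, n = 6).

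A cell kept by the basal gate usually had several binding proteins. On average 2.79 of the 6 were detected in a basal GFP+ cell, 2.35 in an intermediate GFP+ cell and 0.892 in a luminal GFP+ cell. These means pool plates with unlike detection: most intermediate GFP+ cells came from batch 3, and most basal and luminal GFP+ cells from batches 1 and 2. No binding protein was detected in 2 of 100 basal, 5 of all intermediate and 42 of 120 luminal GFP+ cells. In luminal GFP- cells the mean was 1.08, and 12 of 39 had none.

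**Figure D3:**
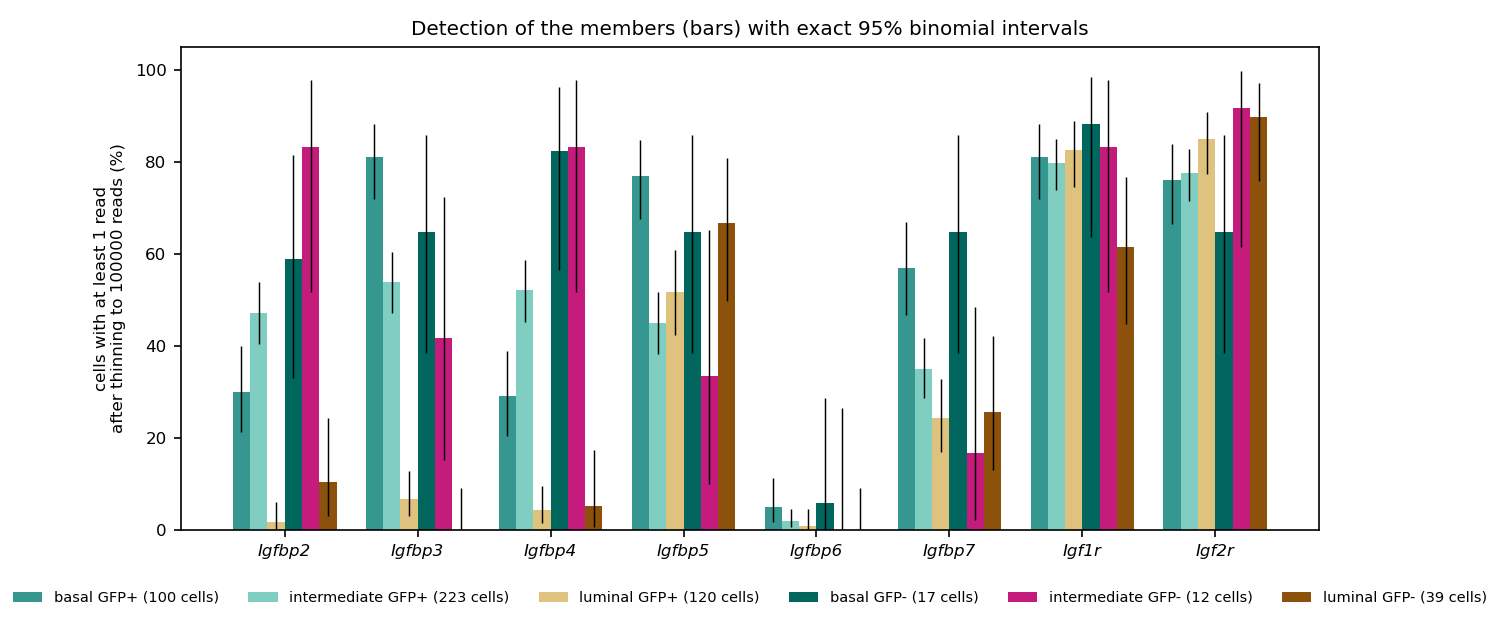
Share of cells in which each member had at least 1 read after thinning to 100000 reads (y axis, percent), by gate and GFP state; bars are shares and lines the exact 95% binomial intervals. Pooled over plates that differ in their mix of gates, the shares of Igfbp2, Igfbp3 and Igfbp4 are lower in the luminal gate than in the other gates. Of these only Igfbp3 passed for level between GFP+ gates in the reported edgeR fit. On plate 4 Igfbp4 was detected in 0 of 19 intermediate and 2 of 51 luminal GFP+ cells. The lowest shares of Igf1r and Igf2r in any group are 61.5% and 64.7%.

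Within the intermediate gate Igfbp2 and Igfbp4 were mostly detected in other cells than Igfbp3, Igfbp5 and Igfbp7. Of the intermediate GFP+ cells, 94 had both Igfbp2 and Igfbp4, where 54.6 would if the genes were detected independently. Igfbp3 and Igfbp5 were detected together in 87 cells (53.8 if independent), and Igfbp3 and Igfbp7 in 71 (41.97 if independent). Igfbp2 and Igfbp3, in contrast, shared only 20 cells (56.5 if independent), with 85 cells holding Igfbp2 alone and 100 holding Igfbp3 alone. The count of shared cells for this pair was 4 on plate E (14.2 if independent), 9 on plate G (19.4) and 2 on plate L (9.64). On plates 3 and 4 it was 3 (2.54 if independent) and 1 (0.947), with no shortfall on these plates. For Igfbp3 with Igfbp5 the counts were 20 on plate E (14.8 if independent), 29 on plate G (18.3) and 10 on plate L (3.21), but 10 on plate 3 (9.31) and 15 on plate 4 (15.2), with no excess on plate 4. Igfbp3 and Igfbp7 shared 13, 22 and 10 cells on plates E, G and L (9.25, 13.7 and 2.75 if independent) and 8 and 15 on plates 3 and 4 (7.62 and 14.2). The sums over plates join plates with unlike detection shares. These cells share mice and plates, so the counts are descriptions with no test. In basal GFP+ cells Igfbp2 and Igfbp3 shared 21 of 100 cells, close to the 24.3 of independence.

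In intermediate GFP+ cells, detection of the members varied with the number of basal markers detected in a cell, in ranges set after seeing the data. Of the 96 intermediate GFP+ cells with 7 to 10 of the 10 basal markers, Igfbp3 was detected in 95.8%, Igfbp5 in 78.1% and Igfbp7 in 71.9%, but Igfbp2 in 14.6% and Igfbp4 in 16.7%. Of the 86 cells with 4 to 6 markers, Igfbp2 was detected in 76.7% and Igfbp4 in 77.9%, and Igfbp3, Igfbp5 and Igfbp7 in 30.2%, 22.1% and 8.14%. Among the basal markers, these cells had the contractile genes Myh11, Cnn1 and Mylk in 4.65%, 18.6% and 23.3% and the oxytocin receptor gene Oxtr in 12.8%, while the smooth muscle actin gene Acta2 was found in 47.7%, the matrix gene Sparc in 37.2%, the keratin genes Krt5, Krt14 and Krt17 in 87.2%, 95.35% and 94.2% and the transcription factor gene Trp63 in 82.6%. In cells with 7 to 10 markers Myh11, Cnn1, Mylk and Oxtr were found in 58.3%, 55.2%, 86.5% and 69.8%, Acta2 in 91.7% and Sparc, Krt14 and Krt17 in 100% each, and in cells with 0 to 3 markers Krt14 was in 78.05%, Krt17 in 24.4% and the others named here, except Trp63, in 0% to 9.76%. Trp63 did not fall with the number of markers, with 66.7% at 7 to 10 and 73.2% at 0 to 3. Of the 41 cells with 0 to 3 basal markers, Igfbp2 and Igfbp4 were detected in 60.98% and 80.5% and Igfbp3 in 4.88%. Summed over cells, Igfbp3 had 2198, 476 and 0.271 CPM in cells with 7 to 10, 4 to 6 and 0 to 3 basal markers, and Igfbp2 had 36.5, 444 and 343 CPM. The Igfbp3 value at 4 to 6 markers rests on plate E, with 1236 CPM there, 200.3 CPM on plate G and 2.94 CPM on plate L. Igf1r was detected in 94.8%, 81.4% and 41.5% of cells in these ranges, and Igf2r in 87.5%, 73.3% and 63.4%. In basal GFP+ cells the shares of Igfbp2 and Igfbp4 were not lowest at the most markers. With all 10 markers they were detected in 15 and 13 of 35 cells, and with 9 markers in 4 and 4 of 29.

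The shares of Igfbp2 and Igfbp3 in the upper ranges of basal markers can be read on each plate of batch 3. In cells with 4 to 6 basal markers Igfbp2 was detected in 64.3%, 87.1% and 95.2% on plates E, G and L, and Igfbp3 in 46.4%, 25.8% and 9.52%. In cells with 7 to 10 markers Igfbp2 was in 8.33%, 21.4% and 7.69% and Igfbp3 in 95.8%, 96.4% and 92.3%. Plates 3 and 4 had few intermediate cells outside the range of 7 to 10 markers (1 of 13 and 2 of 19), and within it Igfbp2 was in 25% and 5.88% and Igfbp3 in 91.7% and 100% of cells. Of the 41 cells with 0 to 3 basal markers, 27 came from plate L, and this plate carried their Igfbp2 share. Igfbp2 was detected there in 3 of 8 cells on plate E, 1 of 4 on plate G and 21 of 27 on plate L, with 96.9, 79.2 and 444.8 CPM, and Igfbp4 in 5 of 8, 3 of 4 and 25 of 27. The 23 intermediate cells of that plate with 3 or more sebaceous markers had Igfbp2 in 21, Igfbp4 in 23 and Igfbp3 in 0, and they held 57.9% of its Igfbp2 reads in this gate. The sebaceous list summed to 3797 CPM there, with all 6 genes above 0 and Scd1 highest at 2945 CPM, and to 641.5 and 886.5 CPM on plates E and G. In the 38 other intermediate cells of plate L, Igfbp2 was found in 21, Igfbp4 in 25 and Igfbp3 in 14.

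**Figure D4:**
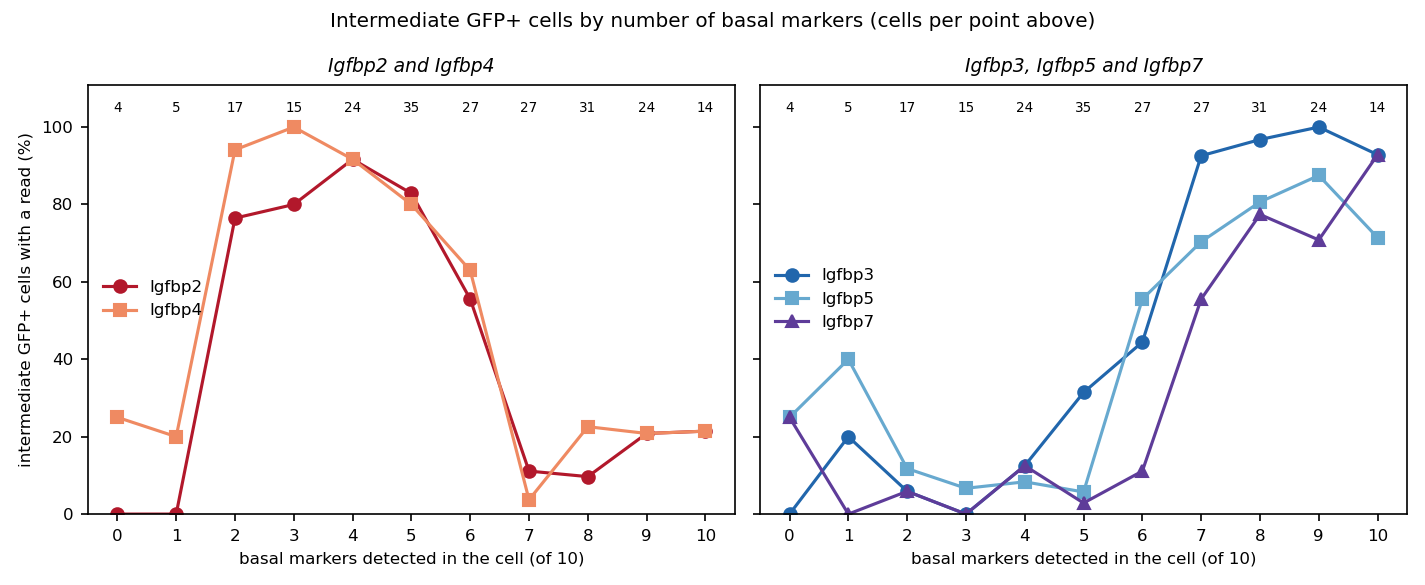
Share of the intermediate GFP+ cells in which a binding protein was detected (y axis, percent) by the number of the 10 basal markers detected in the cell (x axis), with the number of cells above each point. Igfbp2 and Igfbp4 (left) are detected most at 2 to 5 markers (29 and 28 of the 35 cells with 5), and Igfbp3, Igfbp5 and Igfbp7 (right) at 7 to 10 (30, 25 and 24 of the 31 cells with 8).

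In the luminal gate, cells were divided by hormone receptor (HR) markers. A cell with at least 5 of 10 HR-positive markers detected, such as Esr1 and Pgr, was called HR-marker-high. This held for 14 of 39 GFP- and 12 of 120 GFP+ cells. Of the 14, 4 came from plates 1 and 5, where the annotation describes the luminal GFP- cells as ER-negative. The other luminal GFP- cells had a median of 9 of the 10 HRneg markers, and the HR-marker-high ones a median of 1. The median depth of the HR-marker-high GFP- cells was 964500 reads and that of the others 481000 reads, before thinning.

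Among luminal GFP- cells, Igfbp5 and Igf1r were at lower levels in the HR-marker-high class on each plate with both classes. The exact permutation test could not decide on these differences. With 5 plates its smallest p is 0.0625, and over the 16 tests of both GFP states no adjusted p could fall below 0.05. Igfbp5 was detected in 2 of 14 HR-marker-high GFP- cells (14.3%, 95% CI 1.78 to 42.8) and in 24 of the 25 others (96.0%, 95% CI 79.7 to 99.9), with 1.25 and 2332 CPM. On the 5 plates with both classes, the HR-marker-high cells had 2.32 CPM on plate 1, 0 on plate 5, 0.763 on plate E, 2.22 on plate G and 0 on plate L, and the others had 2061, 5358, 418, 7552 and 1347 CPM. The classes did not overlap, as for 0.874% of all genes tested in this direction, although plate G had only 1 cell outside the HR-marker-high class. The mean difference of log2(CPM + 1) was -10.23 ± 1.73 (SD, n = 5), lower on 5 of 5 plates, as were 2.21% of all genes, with a two-sided exact permutation p of 0.0625, the smallest that 5 plates allow, and 0.25 after Benjamini-Hochberg adjustment over the 16 such tests. Igf1r was detected in 3 of 14 and in 21 of 25 of these cells, with 5.51 and 113.6 CPM and a mean log2 difference of -4.72 ± 2.41 (SD, n = 5 plates, lower on 5 of 5, exact permutation p = 0.0625, adjusted 0.25). Igf2r did not follow: it was detected in 12 of 14 and 23 of 25 cells, with a mean log2 difference of 0.14 ± 1.83 (SD, n = 5, exact permutation p = 0.9375).

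Among luminal GFP+ cells Igf1r showed the same direction, and Igfbp5 was detected at a like share in both classes. Igf1r was found in 4 of 12 HR-marker-high cells and 87.96% of the others, with 27.7 and 149.5 CPM. Of the 4 cells, 3 had exactly 5 HR markers, and the class had Igf1r in 1 of 9 cells with 7.80 CPM at a minimum of 6 markers and in 11 of 19 cells with 62.5 CPM at a minimum of 4. With a minimum of 5 it was lower on 6 of 6 plates, as were 1.85% of all genes (mean log2 difference -2.80 ± 1.75, SD, two-sided exact permutation p = 0.03125, the smallest 6 plates allow, adjusted 0.25). Plate 2 entered this comparison with 1 cell of each class. Igfbp5 was found in 6 of 12 HR-marker-high cells and 51.9% of the others, with 312 and 792 CPM. It was lower in the HR-marker-high cells on 5 of 6 plates (mean log2 difference -5.74 ± 4.77, SD, n = 6, exact permutation p = 0.0625, adjusted 0.25). On plate 5 the 2 HR-marker-high GFP+ cells had 4219 CPM of Igfbp5 and the 35 others 1658 CPM. Of the 6 HR-marker-high GFP+ cells with Igfbp5, 3 had exactly 5 HR markers. With a minimum of 6 markers, the shares in GFP+ cells were 3 of 9 and 53.2% of the others for Igfbp5, with 8.55 and 825 CPM, and in GFP- cells 2 of 13 and 24 of 26. Outside the HR-marker-high class Igfbp5 was detected in 24 of 25 GFP- cells and 51.9% of GFP+ cells. These GFP- cells had 2061, 3344, 2923, 5358, 7552 and 1347 CPM on plates 1, 3, 4, 5, G and L, and the GFP+ cells 347, 2.12, 362, 1658, 1864 and 759 CPM. The GFP- level was the higher one on 6 of 6 plates, with 1 GFP- cell on plate G. The share of all genes with this pattern in these cells was not counted. The fit without HR-marker-high cells gave a log2 fold change of 1.81 for GFP- over GFP+ cells (SE 1.02, adjusted p = 0.679 in edgeR), which did not pass.

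**Figure D5:**
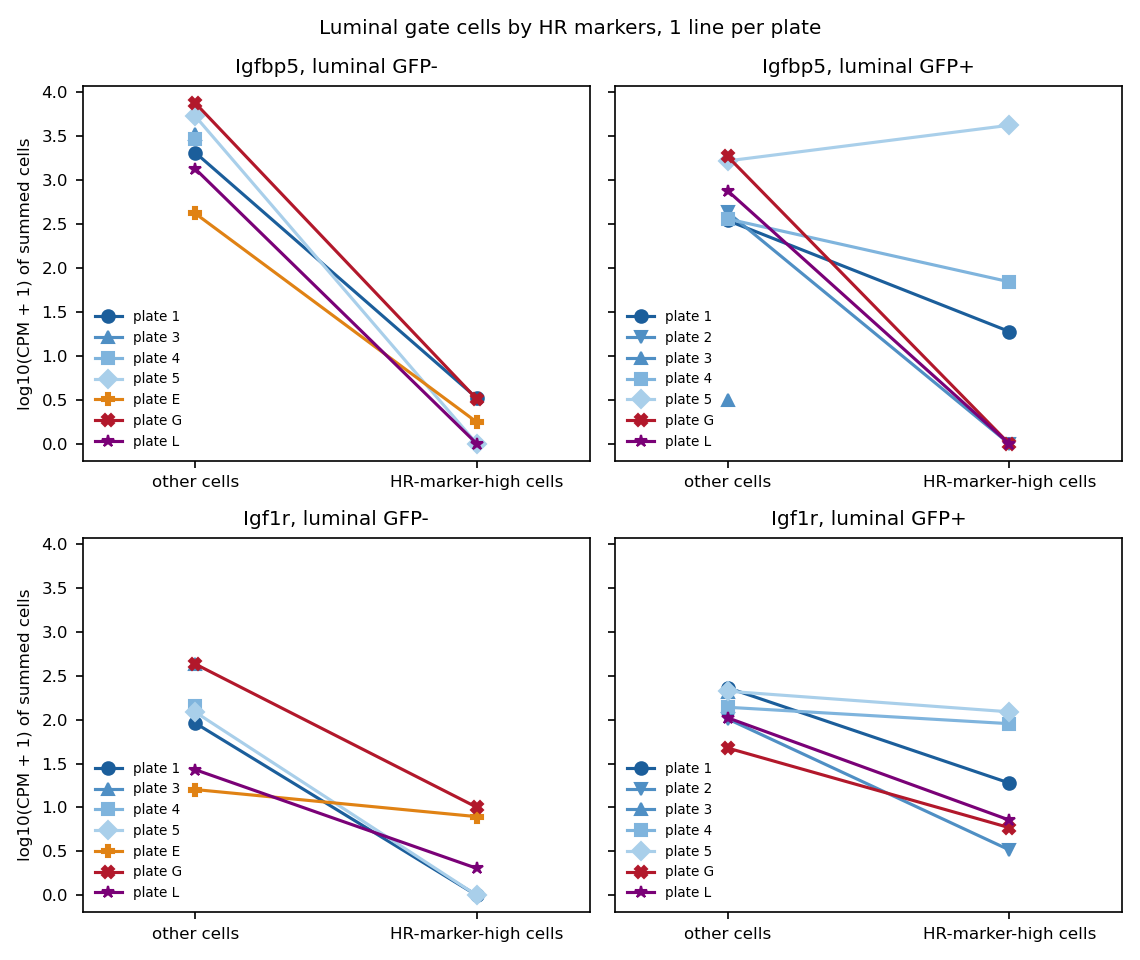
Level of Igfbp5 (top) and Igf1r (bottom) as log10(CPM + 1) on the y axis, in HR-marker-high and other cells of the luminal gate (x axis), for GFP- (left) and GFP+ cells (right); each line joins the classes of 1 plate, and plates with 1 class have a single point. All GFP- lines fall from the other cells to the HR-marker-high cells, for Igfbp5 to at most 2.32 CPM.

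Basal GFP- and GFP+ cells were sequenced together on plates G and L only, and basal GFP- cells also on plate E. Igfbp5 had 1159, 1383 and 321 CPM in basal GFP- cells of plates E, G and L, against 85.3 and 52.5 CPM in the GFP+ cells of plates G and L. The log2 fold change was 1.397 (SE 1.48, adjusted p = 1 in edgeR). On plate L 91.7% of the GFP- reads came from 2 cells with markers of other types, and without such cells the GFP- level there was 46.03 CPM, below that of the GFP+ cells left, while plate E had 581 CPM and plate G 1614 CPM. The log2 fold change without such cells was 0.65 (adjusted p = 1 in edgeR). Igf2r had 62.7, 22.8 and 40.2 CPM in basal GFP- cells, and its log2 fold change was -1.02 (SE 0.708, adjusted p = 1 in edgeR). None of the 8 members passed in this comparison, in which 0.00505% of genes did (1 of 19796, Notch3, lower in GFP- cells with a log2 fold change of -9.27). The 12 intermediate GFP- cells of plates G and L had 480.5 and 534 CPM of Igfbp2, 552 and 373 CPM of Igfbp4 and 340 and 191.8 CPM of Igfbp3. On plate L 1 of 6 cells had markers of another type and held 49.6% of the Igfbp3 reads, and without it the level was 117.1 CPM. The immune list summed to 2070 CPM in the 6 cells, with Cd74 highest at 1623 CPM.

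By chase time, each of 1, 4 and 6 weeks has a single plate of SMACreERT2 mice, and no test was made. Plate L of K5CreERT2 mice, for which the annotation gives both 3 and 6 weeks, is not part of these values. In luminal GFP+ cells of SMACreERT2 mice, Igfbp5 had 218.1 CPM at 1 week (8 cells), 2.12 CPM on plate 3 at 3 weeks (11 cells), 345 CPM at 4 weeks (51 cells) and 1792 CPM at 6 weeks (37 cells). Of these cells, 4 of 8, 0 of 11, 23 of 51 and 29 of 37 had it detected. Plate 2, also at 3 weeks, had only 2 such cells, with 196.7 CPM and Igfbp5 detected in 1 of them, so the levels at 3 weeks differed widely. Plates 1, 2 and 5 were in batch 1 and plates 3 and 4 in batch 2. In basal GFP+ cells of SMACreERT2 mice, Igfbp3 had 756 CPM at 1 week, 1409 at 3 weeks and 1952 at 4 weeks. On plate 1 the salivary list summed to 26390 CPM in luminal GFP+ cells, of which Bpifa2 gave 26190, although cells with more than 1 read of the salivary gene Dcpp1 had been removed.

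Cre lines can be set side by side in intermediate GFP+ cells of batch 3, where plate E is SMACreERT2 and plates G and L are K5CreERT2. Igfbp2 had 130 CPM on plate E, 358 on plate G and 391 on plate L, and Igfbp4 had 110.5, 308 and 584 CPM. Igfbp5 had 77.99, 408 and 138.9 CPM, and 248.2 CPM on plate L without cells of other types. In RPKM, Igfbp3 had 450.7, 406.8 and 72.5 on these plates. For Igfbp3 plate G was close to plate E and plate L lower than both, and for Igfbp2 and Igfbp4 both K5CreERT2 plates were above plate E. On plate L the 23 cells with sebaceous markers held 57.9% of the Igfbp2 and 53.8% of the Igfbp4 reads, and without cells of other types Igfbp2 had 294.2 CPM and Igfbp4 483 CPM there. Igfbp3 without such cells had 1489, 1389 and 406 CPM on plates E, G and L, so that plate L was still the lowest. Cells with 7 to 10 basal markers were 24 of 60 on plate E, 28 of 63 on plate G and 13 of 61 on plate L.

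Beyond the members, 29 other genes of the IGF pathway were followed, of which 25 passed the filter on low counts. None was called in any of the 5 comparisons. The ligand genes were at or near 0 in most sums. Igf1 had a median of 0 CPM in all 6 groups, with 26.6 CPM (58 reads) in the 4 intermediate GFP+ cells of plate 1 and at most 3.40 CPM elsewhere, and Igf2 had at most 2.13 CPM in any sum. Insr, the insulin receptor gene, had 88.8 ± 24.7 CPM in basal GFP+ (SD, n = 5) and 86.9 ± 60.8 CPM in luminal GFP+ cells (SD, n = 6). Pappa, which encodes the protease PAPP-A that cleaves IGFBP4, had 87.05, 28.4, 81.5, 24.5 and 58.8 CPM in basal GFP+ cells of plates 1, 3, 4, G and L, 0 to 11.8 CPM in luminal GFP+ cells and 0 CPM on all 7 plates of luminal GFP- cells. Its basal values all lay above the luminal ones, with a log2 fold change of -6.11 between luminal and basal GFP+ cells (SE 1.69, adjusted p = 0.120 in edgeR). Of the 25 genes that passed the filter, 4 were lower in luminal GFP+ cells on 5 of 5 plates (Pappa, Irs2, Grb10 and Pik3r1), against 4.27% of all genes tested. In the other direction 1 was higher on 5 of 5 (Pik3cb), against 5.39%. Pappa and Pik3cb were the 2 whose groups did not overlap, against 1.15% of all genes in the lower and 1.51% in the higher direction. Irs2, an adaptor of the insulin and IGF1 receptors, was lower in luminal GFP+ cells on 5 of 5 plates (-1.71, SE 0.627, adjusted p = 0.271 in edgeR). Grb10, an adaptor that binds these receptors, had -2.01 (SE 1.66, adjusted p = 0.747 in edgeR) and Pik3r1, a regulatory subunit gene of phosphoinositide 3-kinase, -0.62 (SE 0.413, adjusted p = 0.653 in edgeR). Pik3cb, which encodes a catalytic subunit of phosphoinositide 3-kinase, went the other way, with 25.2, 14.3, 25.2, 36.4 and 56.1 CPM in basal GFP+ cells of plates 1, 3, 4, G and L and 68.7 to 174.2 CPM in luminal GFP+ cells. It was higher in luminal GFP+ cells on 5 of 5 plates without overlap (1.86, SE 0.676, adjusted p = 0.262 in edgeR), and its luminal GFP- values, 26.3 to 66.9 CPM, lay below all luminal GFP+ ones (-1.61, SE 0.598, adjusted p = 0.616 in edgeR), as for 0.146% of all genes, and it was lower in them on 6 of 6 plates, as were 2.01%. Neither passed the test.

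Over all 8 members the median log2 fold change was -3.75 between luminal and basal GFP+ cells, against -0.03 over all 19796 genes. It was -1.22 between luminal and intermediate GFP+ cells (all genes -0.08), -0.51 between intermediate and basal GFP+ cells (0.05), 0.60 between luminal GFP- and GFP+ cells (-0.39) and -0.17 between basal GFP- and GFP+ cells (-0.26). The first 3 share their samples, and Igfbp6, with 0 reads in luminal GFP- cells, lies below the median of that comparison whatever bound is set for it. Without Igfbp6, which has too few reads for a fold change, the medians over the other 7 members were those of 1 member each, -2.71 (Igfbp7), -2.38 (Igfbp7), -0.41 (Igfbp3), 0.61 (Igf2r) and 0.03 (Igf1r) in the same order.

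Likeness of pattern was measured as the Pearson correlation of log2 CPM over the 30 sums, which share plates and depth, and is given as a description. For Igfbp3 the most alike genes were Sobp (r = 0.946), the Notch ligand gene Dll1 (0.944) and Mylk, a myosin light chain kinase that is among the basal markers (0.941). For Igfbp4 they were Trp63 (0.905), Hunk (0.898) and Sh3rf3 (0.867), and for Igfbp2 Slit3 (0.885), Lmo1 (0.880) and Irx4 (0.873). Lower values were reached for Igfbp5 (Lrrc8d 0.750, Fgfr1 0.737, Fbxl14 0.731), Igfbp7 (Tubb6 0.785, Gm7545 0.766, Nfe2l2 0.759), Igf1r (Mpdz 0.748) and Igf2r (Ahr 0.785). Among the members the highest were Igfbp2 with Igfbp4 (0.808) and Igfbp2 with Igfbp3 (0.751), although Igfbp2 and Igfbp3 were mostly in different intermediate cells. Igfbp5 with Igfbp2 and Igfbp3 gave -0.04 and -0.15.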

How the data were processed

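Single cells were sorted into plates and sequenced with Smart-seq2 in 3 batches. The authors deposited raw read counts per gene and cell. The submitters' processing notes name Trim Galore 0.6.5, STAR 2.7.7a, HTSeq 0.13.5, R 4.3.0 and Seurat 4.3.0.1. Per the file headers, the deposited annotation tables hold text on gate, GFP state, plate and chase. Of 840 cells, 96 were a repeat run of plate 5 and were set aside, and 511 of the other 744 passed the filters (over 1400 genes detected, over 100000 reads, a mitochondrial share under 10%, a minimum of 2 reads of Epcam and no more than 1 of Dcpp1). Spike-in rows (88) and HTSeq summary rows (5) were left out of library sizes. Counts were summed per plate, gate and GFP state over at least 3 cells. All 30 sums were fitted together in edgeR 4.0.16 (R 4.3.3) with TMM scaling, filterByExpr, group and plate as terms and the quasi-likelihood test, and p-values were adjusted by Benjamini-Hochberg over 19796 genes (threshold 0.05). The plate pairs the groups because its cells came from the same 1 or 2 mice. DESeq2 1.42.0 and limma 3.58.1 were alternatives. Data were simulated for luminal against basal GFP+ cells (19796 genes, 200 of them changed by 3 on the log2 scale). The dispersion was the trend of the real sums over expression, and no plate effects were simulated. The changed genes were drawn without those of lowest expression. Of these, edgeR recovered 18% with 1 false call, limma 20% with 9 and DESeq2 49% with 155. Promoters were read from RefSeq. The 8 members are named whatever their values, as are up to 4 genes per role of the IGF pathway list and the 3 genes most alike to a member. The members and lists were chosen with earlier results of these data known.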

Additional observations from a re-analysis of the deposited data

Results flagged for a closer look

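In 31 groups of 5 to 7 sums, 5 had 1 plate that stood apart from the others by Dixon's criterion, where chance gives about 1 in 20 groups. Igfbp3 had 163.3 CPM in luminal GFP+ cells of plate 4, against at most 0.682 CPM on the other 5 plates. Igfbp6 had 2.572 CPM in intermediate GFP+ cells of plate G, where 92.98% of its reads came from 1 cell, and 12.69 CPM in luminal GFP+ cells of plate L, where 1 cell gave all 120 reads. Igfbp7 had 644 CPM in luminal GFP- cells of plate 4, where 97.1% of its reads came from 1 cell with at least 3 markers of another type, and 23.5 CPM without that cell. Igf1r had 423.8 CPM in luminal GFP- cells of plate 3, a sum of 3 cells.

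The repeat run of plate 5 was used in no comparison. It gave 1777 CPM of Igfbp5 in 67 luminal GFP+ cells and 3907 CPM in 12 luminal GFP- cells that passed the filters, against 1792 CPM in 37 cells and 3699 CPM in 7 cells of the first run. Both runs read the same sorted cells, so they count as 1 replicate.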

How the results depend on the processing

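Of 379 alternative fits of the members' fold changes, 333 kept the direction and the side of the threshold, 21 passed it where the reported fit did not, 7 lost it and 18 reversed. The call of Igfbp3 between luminal and basal GFP+ cells was lost in batches 1 and 2 alone and without plate 3, and that against intermediate GFP+ cells in the settings named in the report. Igfbp4 passed between luminal and basal GFP+ cells in 6 settings, among them DESeq2 (adjusted p = 0.001), limma (adjusted p = 0.00105) and edgeR on these groups alone (adjusted p = 0.031). In limma and with no filter, Igfbp2 and Igfbp7 passed in this comparison and Igfbp2, Igfbp4 and Igfbp7 against intermediate GFP+ cells, in DESeq2 Igfbp2 and Igfbp7 passed in the first and Igfbp4 in the second, and with no filter Igfbp3 and Igfbp5 passed between luminal GFP- and GFP+ cells. The SDs over plates were near or above the mean for many levels of the binding proteins, so that a move within 1 SD says little on stability there: Igfbp3 in luminal GFP+ cells went from 27.5 to 0.359 CPM without plate 4, and Igfbp4 in basal GFP+ cells from 267.5 to 123.6 CPM without cells of other types. Further, 25 of 96 shares of cells moved when detection asked for 5 reads or all reads were used. The batch settings, the fit without cells with 3 or more markers of another type and the limits of 4 or 6 HR markers were chosen after seeing the data. Why values differed between settings was not tested.

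The share of genes called, in percent of those tested, moved widely between settings. For luminal against basal GFP+ cells it was 0.727% as reported, 1.13% with at least 5 cells per sum, 0.0778% in batch 3, 0.132% in batches 1 and 2, 3.12% with thinned cells, 1.72% when only cells with over 100 Dcpp1 reads were removed, 8.58% in DESeq2, 5.08% in limma, 1.83% with no filter, 0.562% with these groups alone and 0.195% to 0.744% with 1 plate left out. For luminal against intermediate GFP+ cells these were 0.152%, 0.388%, 0.0445%, 0.0418%, 1.21%, 0.551%, 5.82%, 3.53%, 1.14%, 0% and 0.0563% to 0.185%, with 0.0689% without cells of other types. Between intermediate and basal GFP+ cells DESeq2 gave 1.94%, limma 0.106% and no filter 0.163%, and the other settings, with 1 plate left out included, gave 0%. For luminal GFP- against GFP+ cells the 0.0303% became 0.0497% with 5 cells, 6.09% in DESeq2, 0.0152% with DESeq2 size factors in edgeR, 0.242% in limma, 0.465% with no filter, 0% in either batch setting, with these groups alone, without cells of other types and without HR-marker-high cells, and 0% to 0.0564% with 1 plate left out. For basal GFP- against GFP+ cells the 0.00505% became 2.98% in DESeq2, 0.101% in limma, 0.0897% with no filter, 0% in batch 3, with thinned cells, with Cre line at a chase time as the unit, with these groups alone and without cells of other types, and 0% to 0.00513% with 1 plate left out. Batches 1 and 2 held no basal GFP- cells.

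Without the plate as a replicate block, 0.364% of genes passed between luminal and intermediate GFP+ cells and 0.879% between luminal and basal GFP+ cells. Igfbp3 then had -5.22 (adjusted p = 0.0482, edgeR) between luminal and basal GFP+ cells, Igfbp4 passed there (adjusted p = 0.038, edgeR) and Igfbp5 reversed to 0.13, and Igfbp3 was lost against intermediate GFP+ cells (-5.23, adjusted p = 0.0659, edgeR). The block changed no other call of the fold changes given.

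The other reversals were of fold changes that did not pass. Between luminal and basal GFP+ cells, Igfbp5 was 3.57 in batch 3, 0.066 in DESeq2, 0.068 with DESeq2 size factors and -0.92 to 0.92 with 1 plate left out, Igfbp7 was 0.55 in batch 3, and Igf2r was 0.18 in batch 3 and -0.44 to 0.24 with 1 plate left out. Between luminal and intermediate GFP+ cells in batches 1 and 2, Igfbp4 was 0.48 and Igfbp5 -0.22, and in limma Igfbp5 was -0.78. Between luminal GFP- and GFP+ cells in batch 3, Igfbp3 was 1.31 and Igfbp5 -0.23. DESeq2 size factors moved the median over all genes by over 0.1 in the GFP comparisons, from -0.39 to -0.27 in luminal and from -0.26 to -0.14 in basal cells. Groups of 2 to 7 plates, with the spread seen between them, limit every test. In the simulated data for luminal against basal GFP+ cells, edgeR recovered 18% of changed genes at the dispersion of the real sums. With the same plates and a dispersion of 0.05 it recovered 100%. No plate effects were simulated and the dispersion was a trend over expression, so these shares need not hold for the real sums.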

Other observations

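Cells with 2 to 100 reads of the salivary gene Dcpp1 had been removed, and their levels were read afterwards as sums over plates. The 75 such luminal GFP+ cells had 792 CPM of Igfbp5 and 6.37 CPM of Igfbp3, and the 13 luminal GFP- cells had 2241 CPM of Igfbp5 and 0.211 CPM of Igfbp3. The 17 basal GFP+ cells had 904 CPM of Igfbp3, and the 26 intermediate GFP+ cells 1055 CPM. These 26 cells, from plates 2 and 3, had 603 CPM of Igfbp7, where the kept intermediate cells had 82.4 and 184.7 CPM on those plates and at most 240.4 CPM on any plate. They had 726.8 CPM of Igfbp5 (kept cells 454 and 356 CPM on plates 2 and 3) and 17.9 CPM of Igfbp2 (69.3 and 20.1 CPM).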
